A study of Mus musculus with 8 samples.

Results

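H3K27ac, an acetylation of histone H3 that marks active promoters and enhancers, was profiled by ChIP-seq in mouse primary hepatocytes (MPH) from adult male wild-type C57Bl6 mice (C57BL/6J in the study's methods). MPH were treated for 4 h with 1 µM thapsigargin (Thapsi), which blocks the calcium pump of the endoplasmic reticulum and so induces endoplasmic reticulum stress (ERS), or with vehicle (0.04% DMSO). Each treatment had 3 H3K27ac libraries, from independent preparations of MPH, and 1 input library. The deposited lists give 32196 regions on mm10 as H3K27ac UP, H3K27ac DOWN or unchanged in Thapsi against DMSO. The regions described here are those at the promoter of a single protein-coding gene, that is, regions that contain the transcription start site (TSS) of transcripts of exactly 1 protein-coding gene symbol in GENCODE M21. There were 8546 such regions, called members below, at 7698 genes. The other regions comprised 1158 with TSSs of 2 or more coding genes, 938 with TSSs of noncoding genes alone and 21554 with no TSS. The lists hold positions only. Sequencing depth thus cannot be read from them and no region carries a value or an error per library, so that the intervals and p-values below treat regions as units and cover counting error alone.

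A promoter is the stretch around a TSS where RNA polymerase II assembles, and in active genes the nucleosomes on both sides of it carry H3K27ac. Many mammalian genes have several TSSs, either clustered in 1 promoter or spread over alternative promoters. Mammalian promoters fall into CpG-rich ones, common at genes used in most cells, and CpG-poor ones, common at tissue-restricted genes, of which some have a TATA box just upstream of the TSS. Under ERS, the transcription factors ATF6 and XBP1 bind ERS response elements, and ATF4 binds C/EBP-ATF sites at genes of amino acid supply.

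The labelled cell type was checked against marker genes. All 9 hepatocyte markers looked up, including Alb and Apob, had a TSS in an H3K27ac region. Of the markers of other liver cells, Cd68 alone of 6 for Kupffer cells and leukocytes, Stab2 alone of 5 for endothelial cells, Sox9 alone of 4 for cholangiocytes and 0 of 5 for stellate cells had one.

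The sequences upstream of the TSS are shown first for members of the ER stress list, since 10 of the 11 members with the element they share were UP. Each runs from 250 bases before the most upstream TSS in the region to the base before it, on the strand of the gene, in mm10. The capitals mark CCAAT and CCACG spaced by 9 bases, the ERS response element, or its reverse complement. The 4 genes were Dnajc3 (chr14:118937726-118937975, plus strand), which encodes a co-chaperone of the endoplasmic reticulum, Pdia6 (chr12:17266295-17266544, plus strand), which encodes a protein disulfide isomerase, and Calr (chr8:84846935-84847184, minus strand) and Canx (chr11:50325674-50325923, minus strand), which encode the lectin chaperones calreticulin and calnexin. They were chosen among the UP members, so that their class is no finding.
Dnajc3: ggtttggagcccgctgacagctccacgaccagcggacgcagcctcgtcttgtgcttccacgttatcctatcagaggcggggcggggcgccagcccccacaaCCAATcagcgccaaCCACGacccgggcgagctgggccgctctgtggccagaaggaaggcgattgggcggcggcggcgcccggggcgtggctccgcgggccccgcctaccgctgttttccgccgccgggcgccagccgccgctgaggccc
Pdia6: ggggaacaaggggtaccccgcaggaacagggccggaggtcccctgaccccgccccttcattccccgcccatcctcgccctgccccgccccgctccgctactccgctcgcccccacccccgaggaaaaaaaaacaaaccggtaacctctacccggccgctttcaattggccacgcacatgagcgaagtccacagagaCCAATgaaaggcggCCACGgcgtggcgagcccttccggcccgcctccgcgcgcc
Calr: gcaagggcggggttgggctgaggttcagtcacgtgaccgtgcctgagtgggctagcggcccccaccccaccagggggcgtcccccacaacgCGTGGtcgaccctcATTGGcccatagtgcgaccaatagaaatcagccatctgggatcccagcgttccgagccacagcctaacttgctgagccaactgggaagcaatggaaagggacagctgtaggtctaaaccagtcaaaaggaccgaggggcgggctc
Canx: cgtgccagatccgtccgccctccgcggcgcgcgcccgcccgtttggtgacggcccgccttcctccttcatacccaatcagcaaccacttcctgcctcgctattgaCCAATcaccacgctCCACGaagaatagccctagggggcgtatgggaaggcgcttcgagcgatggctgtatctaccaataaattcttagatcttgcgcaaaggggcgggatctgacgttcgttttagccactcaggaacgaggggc
The 2 parts of the element lay from position -149 to -131 in Dnajc3 (bases counted back from the TSS), from -54 to -36 in Pdia6, from -159 to -141 in Calr and from -145 to -127 in Canx. In Calr the element is on the opposite strand.

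A contrasting set has TATAAA, in capitals, between 40 and 20 bases before the TSS. Junb (chr8:84978719-84978968, minus strand) encodes an AP-1 subunit and Cyp2a12 (chr7:27028831-27029080, plus strand) a cytochrome P450, and both were at DOWN regions. Fos (chr12:85473640-85473889, plus strand), which encodes another AP-1 subunit, and Cebpa (chr7:35119043-35119292, plus strand), which encodes the hepatocyte factor C/EBPα, were at unchanged regions.
Junb: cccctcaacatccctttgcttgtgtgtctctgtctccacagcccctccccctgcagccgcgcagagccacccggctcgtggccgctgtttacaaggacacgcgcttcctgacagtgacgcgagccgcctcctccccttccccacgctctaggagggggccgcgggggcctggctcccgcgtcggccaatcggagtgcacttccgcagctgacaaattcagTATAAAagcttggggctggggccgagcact
Cyp2a12: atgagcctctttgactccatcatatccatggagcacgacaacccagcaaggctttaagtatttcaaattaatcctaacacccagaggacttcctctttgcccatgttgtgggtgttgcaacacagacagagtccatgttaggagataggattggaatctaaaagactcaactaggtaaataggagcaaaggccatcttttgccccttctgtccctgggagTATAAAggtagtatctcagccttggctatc
Fos: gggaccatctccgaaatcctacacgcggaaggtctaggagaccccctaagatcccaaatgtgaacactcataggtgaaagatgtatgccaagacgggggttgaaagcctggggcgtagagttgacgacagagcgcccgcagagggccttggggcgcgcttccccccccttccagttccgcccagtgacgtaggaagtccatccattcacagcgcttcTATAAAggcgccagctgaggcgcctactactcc
Cebpa: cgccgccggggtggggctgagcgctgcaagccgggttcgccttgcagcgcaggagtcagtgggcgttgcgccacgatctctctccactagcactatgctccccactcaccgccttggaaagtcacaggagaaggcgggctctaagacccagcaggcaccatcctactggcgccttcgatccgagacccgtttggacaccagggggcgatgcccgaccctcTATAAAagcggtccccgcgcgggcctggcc
The TATAAA starts at -33 in Fos and at -30 in the other 3. This set was chosen by class as well, among DOWN and unchanged members. The promoter of Junb is rich in CpG (observed to expected CpG 0.638, where 1 is the number of CpG dinucleotides that the C and G content predicts), while that of Cyp2a12 is poor in it (0.0599).

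Among the 8546 members, 1596 were UP (18.7%, 95% Wilson interval from 17.9% to 19.5%), 737 were DOWN (8.62%, from 8.05% to 9.24%) and 6213 were unchanged. Over all regions, 17.1% were UP, 10.5% DOWN and 27.6% either. The share of members that changed in either direction, 27.3%, was thus near that of all regions. The direction differed. UP regions made up 68.4% of the changed members (66.5% to 70.3%), 83.8% of the changed regions with several coding genes, 54.6% of those with noncoding TSSs alone and 58.6% of those with no TSS. In logistic regression, with the BH correction over 34 fits, the odds that a changed region was UP were 1.53 times as high for members as for regions with no TSS (n = 8242 changed regions, 95% interval 1.38 to 1.70, adjusted p = 1.2e-15). They were 1.81 times as high as for regions with noncoding TSSs alone (n = 2630, 1.41 to 2.30, adjusted p = 5.81e-06), and lower than for regions with several coding genes (odds ratio 0.420, 0.311 to 0.566, adjusted p = 5.43e-08). The odds of a change in either direction could not be told from those of regions with no TSS (n = 30100 regions, odds ratio 0.994, 0.940 to 1.05, adjusted p = 0.839).

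Region width moved with the class. Members had a median width of 1690 bp, and regions with no TSS 1147 bp. From the narrowest to the widest decile of all regions, the share of changed members went from 6.0% to 51.4%, and UP regions went from 93.3% to 50.6% of the changed members. With width deciles in the fit, members were changed less often than regions with no TSS (n = 30100, odds ratio 0.704, 0.663 to 0.748, adjusted p = 9.4e-29), and the odds that a changed region was UP were 2.14 times as high (1.92 to 2.39, adjusted p = 8.2e-40). In regions from 1084 to 1311 bp, for example, 20.8% of 763 members and 28.1% of 2264 regions with no TSS were changed, and 88.7% against 62.8% of the changed ones were UP.

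**Figure D1:**
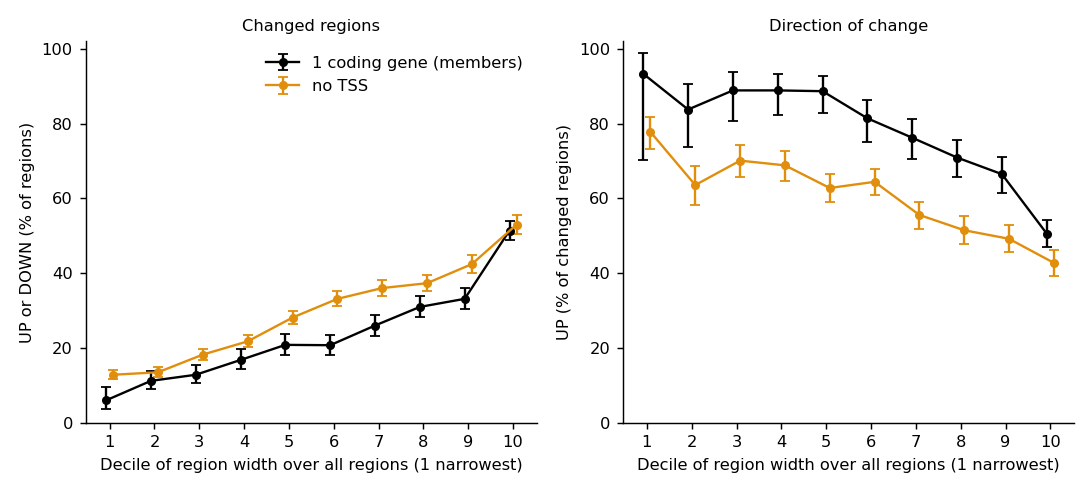
Share of changed regions (left, % of regions) and of UP regions among the changed ones (right, %) by decile of region width, for members (black) and for regions with no TSS (orange), with 95% Wilson intervals. Members changed less often than regions with no TSS in deciles 1 to 10, and in the widest decile 51.4% of members and 53.0% of the others changed. UP regions made up more of the changed members in every decile, at 50.6% against 42.8% in the widest.

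The 5 widest UP members included those at Slc39a14, a zinc transporter gene (chromosome 14, 70322376 to 70355378, 33003 bp), Abhd17c, Cyb5a and Hipk2. The 5 widest DOWN members were at Gpam, which encodes the first enzyme of triglyceride synthesis (chromosome 19, 55090500 to 55128014, 37515 bp), Vmp1, Myh9, Lpin2 and H6pd. Those of the unchanged class were at Ttc39c, Rbm47, Ugdh, Gc and Adk, from 29878 bp down to 17799 bp. Apart from Rbm47, these regions extended further downstream of the TSS than upstream. In Gpam the region extended 776 bp upstream and 36738 bp into the gene. In Hipk2, a kinase gene, the sides were closer, with 13201 bp upstream and 14052 bp downstream.

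Members extended further downstream of the most upstream TSS than upstream of it. The median extent was 534 bp upstream and 1024 bp downstream, and the downstream side was the longer in 76.1% of members. UP members extended a median of 641 bp upstream and 1286 bp downstream, DOWN members 973 bp and 2322 bp, and unchanged members 480 bp and 895 bp. The middle 50% of downstream extents ran from 776 to 2443 bp in UP, from 1204 to 4429 bp in DOWN and from 555 to 1586 bp in unchanged members, so that the classes overlapped widely. In 1 fit with both sides, each doubling of the downstream extent (plus 100 bp) raised the odds of a change 1.55-fold (n = 8546, 1.48 to 1.62, adjusted p = 6.4e-81) and each doubling of the upstream extent 1.27-fold (1.22 to 1.32, adjusted p = 1.1e-30). Among the changed members, the odds of UP fell with both, by odds ratios of 0.678 (0.629 to 0.732) downstream and 0.755 (0.704 to 0.810) upstream, with adjusted p of 1.1e-22 and 2.2e-14 over the 2333 changed members. The extents add up to the width. With width deciles in the fit, the odds ratios for a change were 1.2 downstream (n = 8546, adjusted p = 0.00487) and 1.10 upstream (adjusted p = 0.0160), and those for UP were 1.007 and 0.942 (n = 2333, adjusted p = 0.969 and 0.387).

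**Figure D2:**
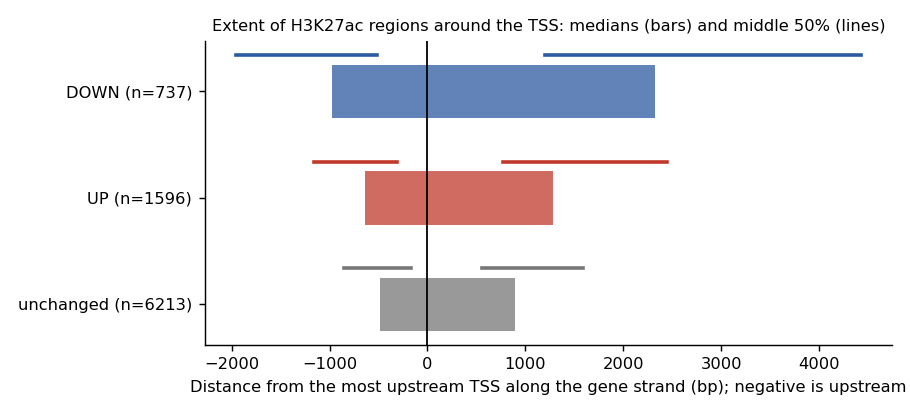
Extent of member regions upstream (negative) and downstream (positive) of the most upstream TSS, in bp along the gene strand, for unchanged, UP and DOWN members. Bars show medians and the lines above them the middle 50%. DOWN members extended furthest on both sides, at medians of 973 bp and 2322 bp.

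The place of the TSS in the region was taken from the upstream edge (0%) to the downstream edge (100%). Its median was 30.9%, and it was 30.1% in UP, 29.4% in DOWN and 31.4% in unchanged members. By this measure, 4565 members had the TSS in the upstream part of 3 equal parts, 3227 in the middle part and 754 in the downstream part. The DOWN share was 8.87% (8.08% to 9.73%), 7.25% (6.41% to 8.20%) and 13.0% (10.8% to 15.6%) in that order, while the UP share was 19.2%, 17.97% and 18.4%. A TSS in the downstream part came with higher odds of a change than one in the middle part (n = 8546, odds ratio 1.36, 1.14 to 1.62, adjusted p = 0.00103) and with lower odds of UP among the changed (0.572, 0.424 to 0.772, adjusted p = 0.000559). For the upstream part the odds of a change were 1.16 times as high (n = 8546, 1.05 to 1.28, adjusted p = 0.00823), with an odds ratio for UP of 0.874 (0.721 to 1.06, adjusted p = 0.204). The call for a change in the upstream part was lost with width deciles in the fit (n = 8546, odds ratio 1.12, adjusted p = 0.0799). With the most downstream TSS in the region as the reference, a change was called neither in the upstream part (n = 8546, odds ratio 1.10, adjusted p = 0.113) nor in the downstream part (1.04, adjusted p = 0.531). The lower odds of UP in the upstream part were called with that reference (n = 2333, odds ratio 0.788, adjusted p = 0.0320), in regions of at least 1 kb (n = 2079, 0.801, adjusted p = 0.0395) and with TSSs of protein-coding transcripts (n = 2136, 0.752, adjusted p = 0.00960), whereas the odds ratio was 1.001 with width deciles (n = 2333, adjusted p = 0.994). Of the changed members at the outermost annotated start of their gene, UP made up 78.1% (middle part) and 59.2% (downstream part). In members with internal starts alone, these shares were 49.2% (42.25% to 56.2%) and 58.0% (48.8% to 66.8%). A lower UP share in the downstream part was thus seen at outermost starts alone, in a split that was not tested.

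**Figure D3:**
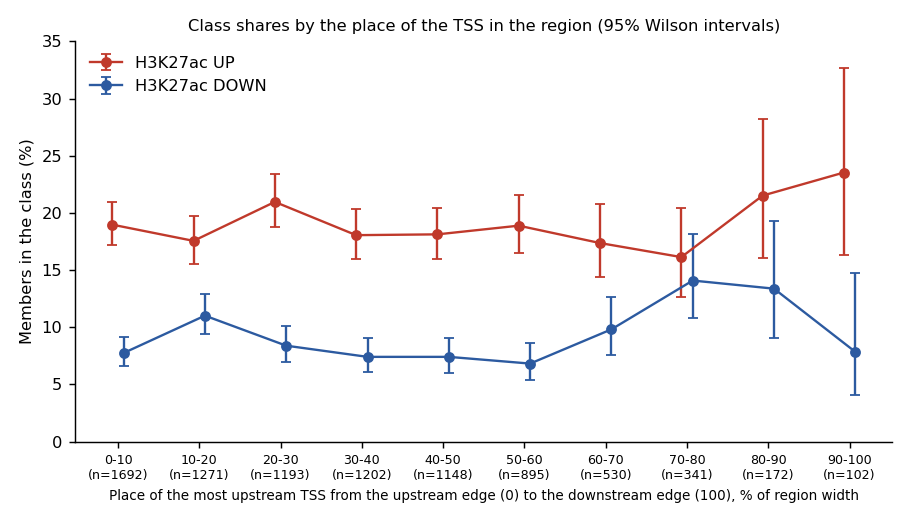
Share of members in the UP (red) and DOWN (blue) class (%) by the place of the most upstream TSS between the upstream edge (0) and the downstream edge (100) of the region, in steps of 10% of the width, with 95% Wilson intervals. The DOWN share lay between 6.82% and 11.01% up to 70% of the width, was 14.1% from 70% to 80% and 13.4% from 80% to 90%, and was 7.84% in the last step. The UP share stayed between 16.1% and 23.5%.

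Examples came from the lists. At Slc7a5, which encodes a transporter of large amino acids, the UP region of 3558 bp reached 3203 bp upstream and 354 bp downstream of a TSS inside the gene. At C3, the central complement component, the DOWN region reached 7385 bp upstream and 2277 bp downstream, and at F11, a coagulation factor gene, 8051 bp and 1519 bp. At Hnf4a, a regulator of hepatocyte genes, the DOWN region of 13466 bp lay mostly downstream of a TSS inside the gene (453 bp upstream and 13012 bp downstream). At Nr1i2, the gene of the xenobiotic receptor PXR, the DOWN region also lay mostly downstream (1405 bp and 15400 bp). So did that at Nr1h4, the gene of the bile acid receptor FXR (920 bp and 11752 bp). In both, the TSS was the outermost annotated start of the gene. The DOWN regions of secreted liver proteins thus included ones that lay mainly before the TSS, and those of the hepatocyte factors ones that lay mainly in the gene.

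Members held from 1 to 18 distinct TSSs of their gene, with a median of 3. A single TSS was present in 2359 of them (27.6%). The DOWN share was 11.1% (9.86% to 12.4%) with 1 TSS, 9.05% with 2, 7.69% with 3 and 5.60% (4.39% to 7.11%) with 4 TSSs, then 7.11% with 5 to 7 and 9.16% (6.72% to 12.4%) with 8 or more. The UP share went from 17.2% with 1 TSS to 20.7% with 5 to 7. Each doubling of the number of TSSs raised the odds of UP among the changed members 1.27-fold (n = 2333, 1.16 to 1.38, adjusted p = 7.05e-07), or 1.33-fold with width deciles in the fit (adjusted p = 1.24e-08). For a change the odds ratio was 0.984 (n = 8546, 0.937 to 1.03, adjusted p = 0.515), and a decrease was called with width deciles in the fit (n = 8546, 0.942, adjusted p = 0.0331) and in regions of at least 1 kb (n = 6486, 0.934, adjusted p = 0.0154). When only TSSs of transcripts annotated as protein coding were counted, which left 7873 members, the odds ratio for UP was 1.06 and was not called (n = 2136 changed members, adjusted p = 0.374).

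The gene of a member was 28811 bp long at the median in UP members, 35975 bp in DOWN members and 28762 bp in unchanged members. The DOWN share was 7.60% (6.44% to 8.96%) for the shortest of 5 equal groups of genes, up to 10703 bp, and 10.1% (8.78% to 11.6%) for the longest, from 84813 bp, and the UP shares were 17.7% and 18.1%. Per doubling of gene length, the odds of a change were 1.03 times as high (n = 8546, 1.005 to 1.06, adjusted p = 0.0301) and the odds ratio for UP was 0.943 (0.897 to 0.992, adjusted p = 0.0307). Neither was called with width deciles in the fit (n = 8546 and n = 2333, 0.994 and 0.974, adjusted p = 0.743 and 0.387).

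In 99 members the region covered the gene from start to end. Of these, 33 were DOWN (33.3%), 14 UP (14.1%) and 52 unchanged, beside 8.62% DOWN and 18.7% UP of all members. Such members included Klf6, Btg2 and Junb of the immediate early list and Hp and Ahsg of the secreted liver list, all DOWN, and Myc, which was UP. Unchanged ones included Atf4, Zfp36 of the immediate early list and Hhex. The odds of UP among the changed were lower than for other members (n = 2333, odds ratio 0.189, 0.100 to 0.355, adjusted p = 7.05e-07) and stayed so with width deciles in the fit (0.364, adjusted p = 0.00662), whereas the higher odds of a change (2.44, 1.64 to 3.63, adjusted p = 2.74e-05) were not called there (1.03, adjusted p = 0.941). A TSS of a noncoding gene lay in 1246 members. These changed more often (30.8% against 26.7%, n = 8546, odds ratio 1.22, 1.07 to 1.39, adjusted p = 0.00462), which was not called with width deciles in the fit (0.918, adjusted p = 0.318).

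The CpG content of the promoter also moved with the direction of change. A promoter was taken as CpG-rich where the window from 250 bases before to 50 bases after the most upstream TSS had a GC content of at least 50% and an observed to expected CpG of at least 0.6. By this measure 5282 members (61.8%) were CpG-rich, against 41.3% of all 21938 promoters of protein-coding genes. Those promoters were taken at the outermost annotated start of each gene, and of the 6138 members that held that start 69.1% were CpG-rich. By class, CpG-rich promoters made up 65.6% (63.2% to 67.9%) of UP, 39.4% (35.9% to 42.9%) of DOWN and 63.5% (62.3% to 64.7%) of unchanged members. Of the 1337 changed CpG-rich members 1047 were UP (78.3%), and of the 996 other changed members 549 were (55.1%), which gave an odds ratio of 2.94 (n = 2333, 2.46 to 3.52, adjusted p = 1.1e-30), or 2.64 with width deciles in the fit (adjusted p = 1.3e-22). CpG-rich members also changed less often (n = 8546, odds ratio 0.772, 0.7004 to 0.850, adjusted p = 6.11e-07). Below an observed to expected CpG of 0.2, DOWN members outnumbered UP members, at 153 against 97 of 710. From 0.8 on, there were 179 DOWN and 672 UP among 3415.

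**Figure D4:**
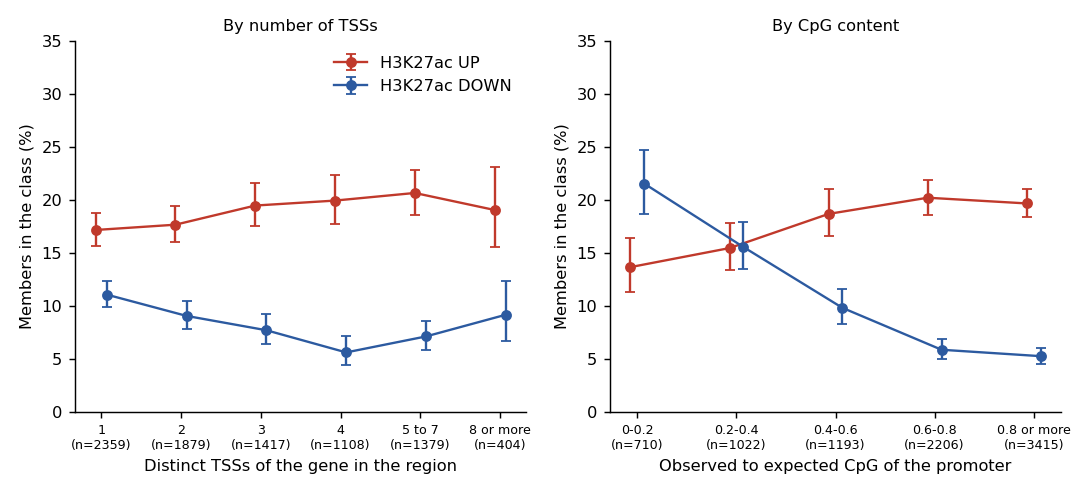
Share of members in the UP (red) and DOWN (blue) class (%) by the number of distinct TSSs in the region (left) and by the observed to expected CpG of the promoter window (right), with 95% Wilson intervals. The DOWN share went from 21.5% to 5.24% across the CpG bins, while the UP share went from 13.7% to 19.7%.

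The CpG and TSS measures overlapped with whether the region held the outermost annotated start of its gene. This split was chosen after values had been seen and was not tested. The outermost start lay in 6138 members, of which 69.1% were CpG-rich, and 2408 held internal starts alone, of which 43.2% were. The DOWN share was 7.69% (7.05% to 8.38%) in the former and 11% (9.82% to 12.3%) in the latter, and the UP share 19.7% (18.7% to 20.7%) and 16.0% (14.6% to 17.6%). Among CpG-rich members, UP made up 78.7% of changed regions at an outermost start and 76.3% at internal starts, and among the others 58.4% and 50.9%. With 1 TSS, 74.3% of the changed CpG-rich members and 51.0% of the other changed members were UP, and with 5 or more TSSs 78.3% and 61.8%.

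Motifs were counted in the same window on both strands, apart from TATAAA, which was read on the strand of the gene. CCAAT and CCACG spaced by 9 bases were found in 25 of the 21938 promoters (0.114%) and in 11 members. Of these 11, 10 were UP, 1 was DOWN and 0 were unchanged. The UP ones were at Dnajc3, Pdia6, Calr, Canx, Syvn1, Ero1lb, Hnrnpa3, Pan2, Spats2l and Zfp57, of which Syvn1 encodes a ubiquitin ligase of endoplasmic reticulum-associated degradation and Ero1lb an oxidase for disulfide bonds. The DOWN one was at Acnat2, an acyltransferase gene. ATTGG and CCACG spaced by 1 base, the second form of the element, were in 16 promoters (0.0729%) and in 8 members, 7 UP and 1 unchanged. The UP ones were at Herpud1, Hyou1, Manf, Nucb1, Tmed2, Lrif1 and Rcl1, and the unchanged one at Rbm39, a splicing factor gene. Together, 17 of 19 members with either form were UP, beside 18.7% of all members. With 11 and 7 changed members, these motifs were too few for a fit under the rule of at least 20, and 8 of the 19 were on the ER stress list.

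TGATGCAA, the C/EBP-ATF site, was in 0.994% of all promoters and in 57 members, of which 23 were UP, 3 DOWN and 31 unchanged. The UP ones included tRNA synthetase genes (Aars, Cars, Iars and Tars), the serine transporter gene Slc1a4, Aldh1l2, which encodes a mitochondrial folate enzyme, Chac1, which encodes a glutathione-degrading enzyme, Atf3 and Herpud1. These were picked from a wider set, in which Cep85, Naaa, Orc2, Pard3, Rnf11 and Vldlr were UP as well. The DOWN ones were at Cyp3a11, Phyh and Tas2r126, and unchanged ones included Slc7a11 and G6pc. Members with the site changed more often (n = 8546, odds ratio 2.25, 1.33 to 3.79, adjusted p = 0.00458), and among those changed the odds ratio for UP was 3.58 (1.07 to 12.0, adjusted p = 0.0522), which was called with width deciles in the fit (4.58, adjusted p = 0.0307). TGACTCA, the AP-1 site, was in 4.59% of all promoters and in 393 members, which changed more often (35.6% against 26.9%, n = 8546, odds ratio 1.50, 1.22 to 1.86, adjusted p = 0.000371). For UP among the changed the odds ratio was 1.21 (n = 2333, 0.827 to 1.77, adjusted p = 0.371), and it was called in a window of 500 bp on each side (n = 2333, 1.33, 1.02 to 1.72, adjusted p = 0.0416). For TGACGTCA, the cAMP response element, in 2.43% of all promoters and in 298 members, the odds ratios were 0.796 for a change (n = 8546, 0.606 to 1.05, adjusted p = 0.129) and 1.43 for UP (0.819 to 2.48, adjusted p = 0.246), and the former was called in the window of 500 bp (n = 8546, 0.745, adjusted p = 0.0250).

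TATAAA was in 2.27% of all promoters and in 72 members, with 10 UP, 13 DOWN and 49 unchanged. The odds ratio for UP among the changed was 0.351 (n = 2333, 0.153 to 0.805, adjusted p = 0.0206), and 0.569 with width deciles in the fit, where it was not called (adjusted p = 0.309). CAAAGTCCA, the site of the hepatocyte factor HNF4A, was in 0.419% of all promoters and in 44 members, 5 UP, 11 DOWN and 28 unchanged, where 18.7% of all members were UP and 8.62% DOWN. With 16 changed members it was not fitted. Cfb, which encodes complement factor B, and the cytochrome P450 genes Cyp2c70 and Cyp3a11 were among the DOWN members with it, and the cytochrome P450 genes Cyp2c67, Cyp2c68 and Cyp8b1 among the unchanged ones. A match is a run of letters and does not show that a factor was bound.

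The lists of genes were described by their counts beside those of all members, with no test. In the ER stress response list, 24 of 27 members were UP (88.9%), 0 DOWN and 3 unchanged. They covered sensors (Ern1, Eif2ak3 and Atf6), the transcription factor gene Xbp1, chaperones and folding enzymes (Hspa5, Hyou1, Dnajb9, Pdia4, Manf and Sdf2l1) and genes of protein degradation (Herpud1, Derl1, Sel1l, Syvn1). The widest were at Ern1 (11863 bp, 5 TSSs), Nfil3 (11815 bp, 1 TSS), Derl1 (8089 bp, 2 TSSs) and Herpud1 (7025 bp, 5 TSSs). The unchanged ones were at Atf4 (6052 bp) and at 2 internal starts of Edem1 (5672 bp and 837 bp), while the region at the first start of Edem1 was UP (2744 bp). The list was also rich in CpG, with 23 of 27 promoters CpG-rich, and the median width of its members was 3187 bp. A further 7 genes of the list, among them Ddit3 and Hsp90b1, shared their region with another coding gene and so are not members.

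In the list of amino acid supply and tRNA charging, 22 of 29 members were UP, 2 DOWN and 5 unchanged. UP members included those at Asns, the asparagine synthetase gene (768 bp), Aars (4152 bp), Mars (3001 bp), Rars (2792 bp) and Slc7a5. They were narrower than those of the ER stress list, with a median width of 1998 bp over the list, and had a median upstream extent of 454 bp against 1203 bp. The 2 DOWN members were at Gars (3905 bp) and at Mthfd2, which encodes a mitochondrial folate enzyme. Mthfd2 had both a DOWN region of 901 bp and an UP region of 894 bp with 2 TSSs. Psph, Slc3a2 and Iars each had 1 UP and 1 unchanged region.

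The immediate early list had 6 UP (37.5%), 3 DOWN (18.75%) and 7 unchanged of 16 members, beside 18.7% UP and 8.62% DOWN of all members. Of its 22 genes, 5 had no region at a TSS and 1 shared its region with another coding gene. The UP members were at Dusp1 (14108 bp), Myc (10583 bp), Atf3 (5516 bp), Egr1 (4194 bp), Fosl1 and Klf4. The DOWN members at Klf6 (13174 bp), Btg2 (9680 bp) and Junb (8292 bp) each covered the gene whole, and the unchanged members included Fos, Fosb, Fosl2, Ier2 and Zfp36. The median width over the list, 5521 bp, was over that of all members, and 14 of 16 promoters were CpG-rich. Of all members from 3813 bp in width, 26.0% were UP and 25.4% DOWN.

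Of the hepatocyte transcription factors, 9 of 32 members were DOWN, 4 UP and 19 unchanged. The DOWN ones included those at Nr1i2 (16806 bp), Hnf4a (13466 bp), Nr1h4 (12673 bp), Onecut1 (6457 bp), Foxa2 (5650 bp), Foxa1 (5374 bp), Nr5a2 (4032 bp) and Rarb (3517 bp). The UP ones included those at Nfic, Rxra and Tef, which lay at internal starts. The DOWN regions at Hnf4a, Nr5a2 and Rarb lay at internal starts as well. At Nr5a2 the region at the first start (2633 bp) was unchanged, and Nr1h4 had a further, unchanged region at an internal start (5773 bp). At Rxra, the retinoid X receptor α gene, the region at the first start (15844 bp, 3 TSSs) and another at an internal start (1517 bp) were unchanged. At Tef the region at the first start (937 bp) was unchanged, as was a further region of Nfic at an internal start (2618 bp). CpG-rich promoters made up 11 of the 32.

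Secreted liver proteins had 11 DOWN, 1 UP and 25 unchanged of 37 members, and 0 of the 37 had a CpG-rich promoter. The DOWN members were at Ahsg (25256 bp, the gene of fetuin-A, covered whole), Hpx (10322 bp), Hp (9757 bp), C3 (9663 bp), F11 (9571 bp), Serpinf2, Apoe, Serpina1a, F12, Cfb and Serpina1b. Some abundantly expressed liver genes, Alb (8259 bp), Ttr (5284 bp) and Apob (5891 bp), were at unchanged regions. Cytochrome P450 genes had 8 DOWN, 4 UP and 17 unchanged of 29 members, with Cyp2d9 (6489 bp), Cyp2c70 (5387 bp), Cyp2d22 (5245 bp) and Cyp2d26 (4426 bp) the widest DOWN and Cyp4v3 (5828 bp) and Cyp2c50 (3341 bp) the widest UP ones. Of the 94 genes of this family, 28 had member regions, 1 shared its region with another coding gene and 65 had no region at a TSS. The counts thus do not describe most of the family. Some genes of this family are similar in sequence within clusters, so reads of their promoters may be shared. This was not tested.

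Circadian clock genes had 4 UP (Per2, Nr1d1, Cry1 and Ciart), 1 DOWN (Cry2) and 6 unchanged of 11 members. In the housekeeping lists the unchanged shares were 82.8%, 91.2% and 96.1%, beside 72.7% of all members, and the UP shares 15.5%, 8.82% and 3.92%, beside 18.7%. Cytosolic ribosomal proteins had 9 UP, 1 DOWN (Rps27l) and 48 unchanged of 58, proteasome subunits 3 UP (Psma5, Psmd5 and Psme3), 0 DOWN and 31 unchanged of 34, and oxidative phosphorylation, with its assembly factors, 2 UP (Sdhb and Atp5g1), 0 DOWN and 49 unchanged of 51. The median widths of these 3 lists were 1856 bp, 1412 bp and 1271 bp, beside 1690 bp for all members. The median width of the secreted liver list was 5284 bp and that of the hepatocyte factors 4304 bp. In the widest of 3 equal groups of members by width, from 2412 bp, 24.9% of those without a CpG-rich promoter were DOWN. Of the CpG-rich ones in that group, 26.9% were UP and 13.2% DOWN. The part of width and CpG content in the counts of the lists was not tested.

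**Figure D5:**
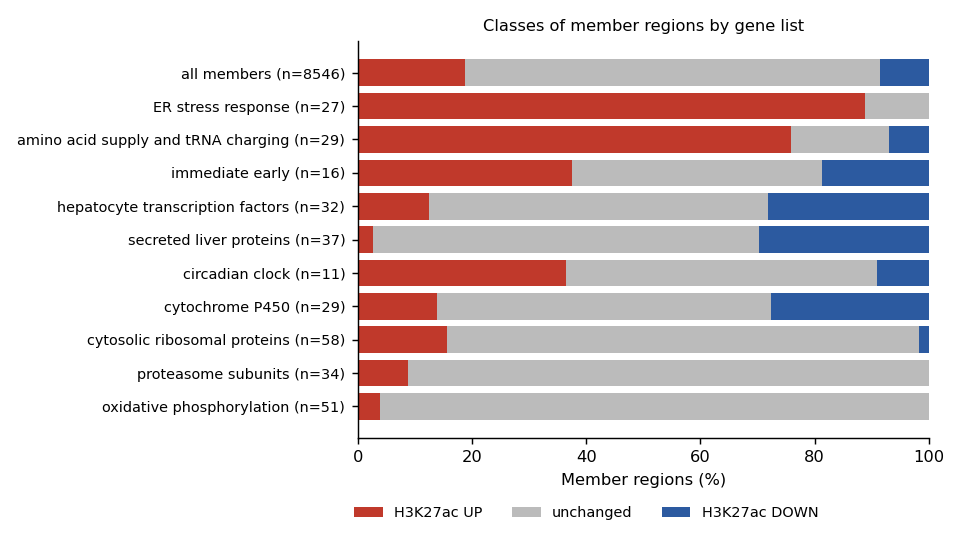
Share (%) of member regions that were UP (red), unchanged (grey) or DOWN (blue) for all 8546 members and for each gene list, with the number of regions per list beside its name. UP regions were 88.9% of the ER stress list and 75.9% of amino acid supply and tRNA charging, against 18.7% of all members. DOWN regions were 29.7% of the regions of secreted liver proteins, 28.1% of those of hepatocyte transcription factors and 27.6% of those of cytochrome P450 genes, against 8.62%. Of members from 2412 bp in width without a CpG-rich promoter, 24.9% were DOWN.

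Further regions with no TSS lay within the gene body of 729 UP, 427 DOWN and 2685 unchanged members. At least 1 of them was UP for 43.4% of these UP members (39.8% to 47.0%) and for 33.8% of the unchanged ones (32.1% to 35.6%). With the number of body regions as a covariate, the odds ratio was 1.57 (n = 3414 members, 1.31 to 1.89, adjusted p = 3.66e-06). At least 1 was DOWN for 40.5% of the DOWN members (36.0% to 45.2%) and for 22.6% of the unchanged ones (21.03% to 24.2%), with an odds ratio of 2.16 (n = 3112 members, 1.70 to 2.73, adjusted p = 7.73e-10). A gene with several member regions entered these fits once per region, with the same body regions each time. Both calls were kept with each gene counted once. The reverse directions also occurred, since 26.2% of the DOWN members had an UP region in the gene body and 22.4% of the UP members a DOWN one. At Ern1, for example, 3 of 8 body regions were UP and 2 were DOWN.

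Several member regions were present at 736 genes, with up to 5 per gene. All of them were unchanged at 323 genes, and both an UP and a DOWN region were present at 29. The most upstream region of these genes was DOWN at 84 (11.4%) and UP at 154 (20.9%), and the most downstream one DOWN at 126 (17.1%) and UP at 140 (19.0%). Over all members, 8.62% were DOWN and 18.7% UP, so that the UP shares at both ends were near that of all members. Gsta3, a glutathione transferase gene, had an UP region of 10492 bp with 3 TSSs and, about 1 kb further on, a DOWN region of 5998 bp at an internal start. At Rapgef1 an UP region of 12043 bp with 4 TSSs at the first start was followed by a DOWN region of 1881 bp at an internal start. Zfand3 had an UP region at its first start (5885 bp, 7 TSSs), 2 unchanged regions and a DOWN region (7693 bp) at internal starts. The order was the opposite at Gpt2, which encodes an alanine aminotransferase, with a DOWN region of 12407 bp at the first start and an UP region of 564 bp inside the gene, and at Lrp1, Usp3 and Cds2. At Lrp1, the gene of a lipoprotein receptor, the DOWN region of 11081 bp held 3 TSSs and the UP region of 936 bp 1 TSS. The other genes with the widest such sets were 2010111I01Rik, Gcnt2 and Osbpl1a.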

How the data were processed

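Per the labels and the study's methods, the authors mapped reads to mm10 with Bowtie, called broad peaks with MACS2 on pooled libraries, tested bins for Thapsi against DMSO with csaw, pairing the libraries of an experiment, and merged the bins over a peak. UP and DOWN regions passed an FDR of 0.05 with mostly UP or mostly DOWN bins, unchanged regions did not pass it, and mixed regions are in neither. The deposited lists hold region positions in bp (mm10, written 1-based here) without read counts, so depth and error between libraries are unknown. Classes were those of the lists, with UP read as higher in Thapsi, as the lists are named. The study's code orders the treatment levels as Thapsi, then DMSO, under which the fitted coefficient would be DMSO over Thapsi, so the direction rests on the list names, and 24 of 27 members of the ER stress list were in the UP list.

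TSSs and gene spans came from GENCODE M21 and sequences from the mm10 genome of RefSeq. The extent, TSS place and promoter window refer to the most upstream TSS of the gene in the region. Values for all promoters refer to the outermost annotated start of each gene, so they are not taken at the same starts. Outcomes were a change (UP or DOWN against unchanged) and UP among the changed, in logistic regressions across regions (Wald test, two-sided) with the BH correction over 34 fits and a threshold of 0.05. Neighbouring regions are not independent, so p-values may be too small. A motif needed 20 changed members for a fit. The fits were tested on simulated data. Alternatives were width deciles, regions of at least 1000 bp, each gene once, TSSs of coding transcripts, standard errors clustered by chromosome, the most downstream TSS, another definition of CpG-rich and a window of 500 bp on each side.

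The members, lists and tests were chosen with earlier results of these data known. Named genes were, per list, up to 4 UP and 4 DOWN members with the widest regions, the 5 widest members of each class and 10 genes with UP and DOWN regions. The sequences were up to 4 UP members of the ER stress list with CCAAT and CCACG, and up to 3 DOWN and 2 unchanged members of other lists with TATAAA. Other genes were named after their values were seen. Some genes that the rule selects are not reported here. C5 did not match the annotation. Signal tracks were not used here. Fits were run in statsmodels 0.14.6 under Python 3.11.15, with pandas 2.3.3 and numpy 2.4.6 for the tables and matplotlib 3.10.9 for the figures.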

Additional observations from a re-analysis of the deposited data

How the results depend on the processing

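Of the 196 values recomputed under the alternatives, 159 showed neither a change of sign nor a call gained or lost, and shares among them stayed within their interval. With width deciles in the fit, odds ratios passed 1 for UP by the upstream part against the middle part (1.001), UP by downstream extent (1.007), a change by gene length (0.994), a change with a noncoding TSS (0.918) and a change with TATAAA (0.827). There, the calls were lost for a change in the upstream part (1.12), UP by upstream extent (0.942), UP by gene length (0.974), a change where the gene lay inside the region (1.03) and UP with TATAAA (0.569), and gained for members against regions with no TSS in a change (0.704), a change per doubling of TSSs (0.942), UP with a noncoding TSS (1.42) and UP with TGATGCAA (4.58). In regions of at least 1 kb (6486 members), the UP and DOWN shares were 21.2% and 10.9%. There, members against several coding genes passed 1 for a change (1.02), calls were lost for a change by gene length (1.02), UP by gene length (0.959) and a change with a noncoding TSS (1.04), and gained for members against no TSS in a change (0.834), UP in the upstream part (0.801) and a change per doubling of TSSs (0.934). With each gene counted once (7698 members), members against no TSS passed 1 for a change (1.008) and UP by gene length was not called (0.951). With TSSs of coding transcripts, a change per doubling of TSSs passed 1 (1.003), calls were lost for UP per doubling of TSSs (1.06), a change by gene length (1.03) and UP by gene length (0.988), and UP in the upstream part was called (0.752). From the most downstream TSS, a change in the upstream part (1.10) and in the downstream part (1.04) was not called, and UP in the upstream part was (0.788). UP with TGATGCAA was called with standard errors clustered by chromosome (3.58) and in the window of 500 bp (2.74), where UP with TGACTCA (1.33) and a change with TGACGTCA (0.745) were called as well. Both values for CpG-rich promoters kept their calls when defined by observed to expected CpG alone. The causes of these shifts were not tested.

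No paired analysis was possible because the lists hold region positions with no value per library, and leaving out a replicate was not run for the same reason. Depth limits remain unknown.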
